A study of Mus musculus with 3 samples.

Results

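The S100 genes encode small calcium-binding proteins, and 10 of them (S100a1, S100a4, S100a5, S100a6, S100a8, S100a9, S100a10, S100a11, S100a13 and S100a16) were read by their symbols in gene tables of 23234 genes each. RNA was sequenced from 3 sorted cell populations of wild-type C57BL/6J mice aged 6 to 15 weeks, all of which had received 10 µg of the bacterial endotoxin lipopolysaccharide (LPS), which sets off inflammation, in 10 µL of buffer through the nostrils. The double-positive group (DP) was the CD45+ Ly6G+ SiglecF+ fraction of the nose at day 2, Ly6G being an antigen of neutrophils and SiglecF a sialic acid-binding lectin. Nasal neutrophils were the CD45+ Ly6G+ SiglecF- fraction of the nose at day 1. Blood neutrophils were the fraction of that phenotype in peripheral blood, also at day 1. With 1 library in each group, differences have neither an error between replicates nor a test, and the effects of gate and day on DP cannot be told apart. How many mice were pooled for a library is not given in the sources used here. Values are FPKM, fragments scaled to transcript length and library size, so levels of different genes can be set side by side.

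S100 proteins carry a pair of EF-hand motifs, loops that hold calcium, and most work as dimers. Calcium opens a surface through which they grip target proteins such as annexins and myosin heavy chains. S100A8 and S100A9 form calprotectin, which fills the neutrophil cytosol, withholds zinc and manganese from microbes once released, and signals through Toll-like receptor 4. Other members serve other cells: S100A5 is a protein of olfactory sensory neurons, and S100A1 is best known from heart and skeletal muscle.

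A value of 1 FPKM on a transcript of 1 kb corresponded to about 55 fragments in DP, 13 in nasal and 54 in blood neutrophils, so the nasal neutrophil values rest on the fewest. Of 13 neutrophil markers all were above 0 in both nasal libraries and 12 in blood, the exception being S100a8. The 10 eosinophil markers, of another cell type with SiglecF, summed to between 7.35 and 20.3 FPKM, with the granule genes Epx and Prg3 at 0 in all 3 libraries. Olfactory neuron markers summed to 2059 FPKM in DP, to 1071 in nasal and to 5.06 in blood neutrophils, and nasal epithelial and gland markers to 2659, 1982 and 1.93. Stromal and endothelial markers gave sums of 36.2 to 51.6 FPKM and glial markers of 150.5 to 493.3, both highest for nasal neutrophils.

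Levels of the 10 genes ran from the very top of the tables to 0. Their share of the summed FPKM was 2.08% in DP, 7.28% in nasal and 9.96% in blood neutrophils, although S100a8 contributed nothing to the blood figure. All 10 had a mean of 1 FPKM or more over the 3 libraries, and 8 were above 0 in each. The exceptions were S100a8 and S100a16, both listed at 0 in blood.

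**Figure D1:**
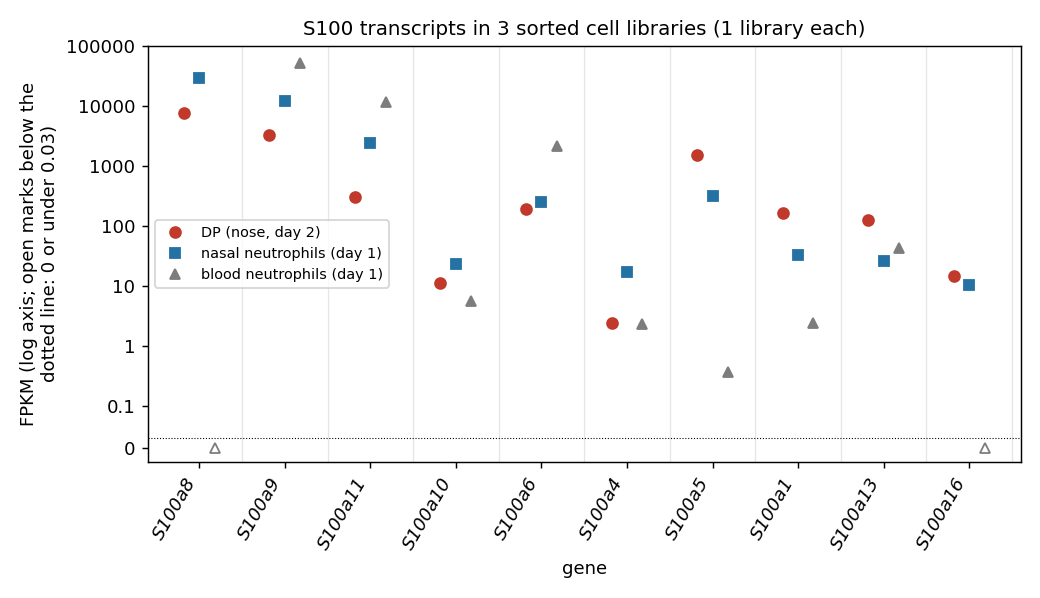
FPKM of the 10 S100 genes in each library on a log axis, 1 mark per library; open marks below the dotted line stand for genes listed at 0. S100a9, S100a11 and S100a6 are highest in blood neutrophils, S100a5, S100a1 and S100a13 in DP, and S100a10 and S100a4 in nasal neutrophils.

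Promoter sequences were available for 9 of the 10 genes in a RefSeq table on GRCm38.p6 and were searched on both strands for TATAAA (the TATA box), CCAAT and GGGCGG (a GC box), motifs that do not overlap each other here. S100a10 had no entry. The stretch from 80 bases before to 20 bases after the listed start is given 5′ to 3′ on the strand of the gene for 7 genes, chosen for their contrasting levels: the calprotectin pair, S100a4 and S100a11, which were between 3.80-fold and 7.73-fold lower in DP than in nasal neutrophils, S100a6, which was 1.28-fold lower, and S100a5 and S100a13, which were higher. Capitals mark a motif.
S100a8, chr3:90668991-90669090, plus strand: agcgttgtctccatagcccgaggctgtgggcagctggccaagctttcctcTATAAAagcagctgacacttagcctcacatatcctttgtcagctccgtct
S100a9, chr3:90695702-90695801, minus strand: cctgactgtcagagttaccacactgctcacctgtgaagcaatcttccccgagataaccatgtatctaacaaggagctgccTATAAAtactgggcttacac
S100a4, chr3:90603690-90603789, plus strand: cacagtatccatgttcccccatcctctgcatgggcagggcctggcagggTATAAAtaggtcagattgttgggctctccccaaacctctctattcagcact
S100a11, chr3:93520416-93520515, plus strand: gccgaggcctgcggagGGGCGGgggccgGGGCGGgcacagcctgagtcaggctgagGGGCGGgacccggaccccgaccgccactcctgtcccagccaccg
S100a5, chr3:90608442-90608541, plus strand: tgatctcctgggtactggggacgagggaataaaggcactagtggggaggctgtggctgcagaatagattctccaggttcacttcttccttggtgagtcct
S100a6, chr3:90612814-90612913, plus strand: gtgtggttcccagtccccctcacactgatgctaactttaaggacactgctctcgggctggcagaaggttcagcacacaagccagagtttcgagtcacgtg
S100a13, chr3:90514355-90514454, plus strand: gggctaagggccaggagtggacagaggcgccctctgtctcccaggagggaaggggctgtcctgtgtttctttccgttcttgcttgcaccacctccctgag

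TATAAA stood in the windows of 3 members, S100a8, S100a9 and S100a4, and in 5.31% of all 32851 promoters of the table over the same 100 bases. In S100a8 it began 30 bases and in S100a4 31 bases before the listed start, while in S100a9 it began at base 1 after it. GGGCGG stood in the windows of 2 members, S100a11 and S100a16, and in 24.4% of all promoters. It occurred 3 times in the S100a11 window, which was 80% G and C, and began 30 bases before a listed start of S100a16. In S100a9 it lay outside the window, 223 bases before the start. CCAAT was found in no printed window, against 17.3% of all promoters. Over the whole 300 bases of the table CCAAT stood, on the opposite strand, 97 bases before the start of S100a5 and 228 before that of S100a6, against 37.4% of all promoters. These matches describe letters in the sequence; no file of the series measured binding there.

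The calprotectin genes were the highest of the 10 in both nasal libraries. S100a8 had 7656 FPKM in DP, 29818 in nasal neutrophils and a listed value of 0 in blood. S100a9 stood at 3233 FPKM in DP, 12277 in nasal and 52238 in blood neutrophils. S100a9 was the most abundant of all genes in blood neutrophils, while S100a8 ranked 5 in DP and 2 in nasal neutrophils. Both genes were lower in DP than in nasal neutrophils, and by nearly the same factor, 3.89-fold for S100a8 and 3.80-fold for S100a9. The ratio of S100a8 to S100a9 was accordingly 2.37 in DP and 2.43 in nasal neutrophils. From nasal to blood neutrophils S100a9 was 4.26-fold higher, and from DP to blood 16.2-fold.

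The value of 0 for S100a8 in blood can be a failed estimate rather than an absence of transcripts. Its neighbour S100a9 was the most abundant gene of that library. In blood 91 genes were at 0 while at 10 FPKM or more in both other libraries, against 5 in DP and 19 in nasal neutrophils. The 91 include genes of nasal tissue such as Omp and Epcam, so the count does not tell failed estimates from absent transcripts. Because the meaning of a 0 is uncertain, S100a8 and S100a16 have no ratio against blood. Of the 13 neutrophil markers, which include both genes, 11 were lower in DP than in nasal neutrophils, 5 of them at least 4-fold, as were 3.39% of all genes tested. Csf3r, the receptor for granulocyte colony-stimulating factor, was near level at 581.4 and 606.8 FPKM in DP and nasal neutrophils, whereas Retnlg stood at 142.9 and 4692 FPKM. In such bulk samples fewer cells of a type and less RNA per cell cannot be told apart.

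S100a11 encodes calgizzarin, a partner of annexin A1, and had the widest spread of the 3 members that were highest in blood. It stood at 307.9 FPKM in DP, 2380 in nasal and 11622 in blood neutrophils, where it ranked 6 of all genes. It was thus 7.73-fold lower in DP than in nasal neutrophils and 4.88-fold lower in nasal than in blood neutrophils. A RefSeq pseudogene of S100a11 exists, and its value is uncertain if reads were divided with that copy, which was not tested. S100a6, calcyclin, is a partner of the ubiquitin-linked protein CacyBP. It stood at 194.1 FPKM in DP, 248.9 in nasal and 2135 in blood neutrophils. The 2 nasal libraries lay within 1.28-fold of each other, and blood was 8.58-fold above nasal neutrophils and 11-fold above DP.

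S100a10 and S100a4 had another order, with nasal neutrophils highest. S100a10 encodes p11, which binds annexin A2 and gathers plasminogen at the cell surface. It stood at 11.3 FPKM in DP, 23.8 in nasal and 5.65 in blood neutrophils. S100a4, metastasin, whose product binds nonmuscle myosin heavy chains and is linked to cell motility, stood at 2.45, 17.5 and 2.37 FPKM across DP, nasal and blood neutrophils. DP and blood were nearly level for S100a4, a factor of 1.04 apart, and nasal neutrophils were 7.14-fold above DP. The S100a4 values rest on about 55.7 fragments in DP, 93.3 in nasal and 53.3 in blood neutrophils at most. Macrophage and monocyte markers were also highest in nasal neutrophils, with 10 of 13 genes highest there and sums of 502.3 FPKM for DP, 869.2 for nasal and 569.9 for blood neutrophils. This order was not particular to them. It was found for 10 of 13 stromal and endothelial markers, 9 of 13 abundant neutrophil cytosol and granule genes and 5 of 15 olfactory neuron markers. The share among all genes was not computed. Of the 13 macrophage and monocyte markers 4 were at 0 in blood: C1qa, C1qb, C1qc and Mrc1. Mrc1 was also low in DP (0.28 FPKM) and nasal neutrophils (0.99). Other markers of that list were well above 0 in blood, with Cd68 at 235.3 FPKM, Ly6c2 at 168.1, Csf1r at 85.9 and Emr1 at 78.8. The part of macrophage and monocyte RNA in the values of S100a4 and S100a10 was not tested.

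S100a5 set the nasal libraries apart from blood more than any other member with a ratio. It stood at 1517 FPKM in DP, 323.7 in nasal and 0.37 in blood neutrophils, where the value rests on about 8.6 fragments at most. It ranked 44 of all genes in DP and 258 in nasal neutrophils. S100a5 encodes a calcium sensor of olfactory sensory neurons. All 15 olfactory neuron markers were higher in nasal than in blood neutrophils, and 7 were listed at 0 in blood: Omp (the olfactory marker protein), Gap43, Gng13, Cnga2, Cnga4, Rtp1 and Stmn2. Between the nasal libraries 10 of the 15 markers were higher in DP and 5 lower, 2 of them at least 4-fold higher (Gap43 and Gng13) and 0 at least 4-fold lower, where 7.8% and 3.39% of all genes tested were. The median log2 ratio of the 15 markers was 0.40, below the 0.57 of all genes tested.

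The ratio of S100a5 to those markers differed between the nasal libraries for some markers and was nearly level for others. Set against the summed markers it was 0.737 in DP and 0.302 in nasal neutrophils. S100a5 was 6.99 times the level of Gng13 in DP and 6.84 times in nasal neutrophils, and for Gap43 the ratios were 30.5 and 32.5. Against Omp the ratio was 6.22 in DP and 1.39 in nasal neutrophils, and over all 15 markers it was higher in DP for 14 and lower for 1 (Gap43). That count is not particular to olfactory markers. S100a5 had a higher log2 ratio of DP to nasal neutrophils than 94.9% of all genes tested, so most genes would give the same direction. Stoml3, a stomatin-like protein of olfactory neurons, had 1104 FPKM in DP against 497.3 in nasal neutrophils, below S100a5 in DP and above it in nasal neutrophils. Omp was near level at 244 and 233.6 FPKM. The part of olfactory neuron RNA in the S100a5 values was not tested.

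**Figure D2:**
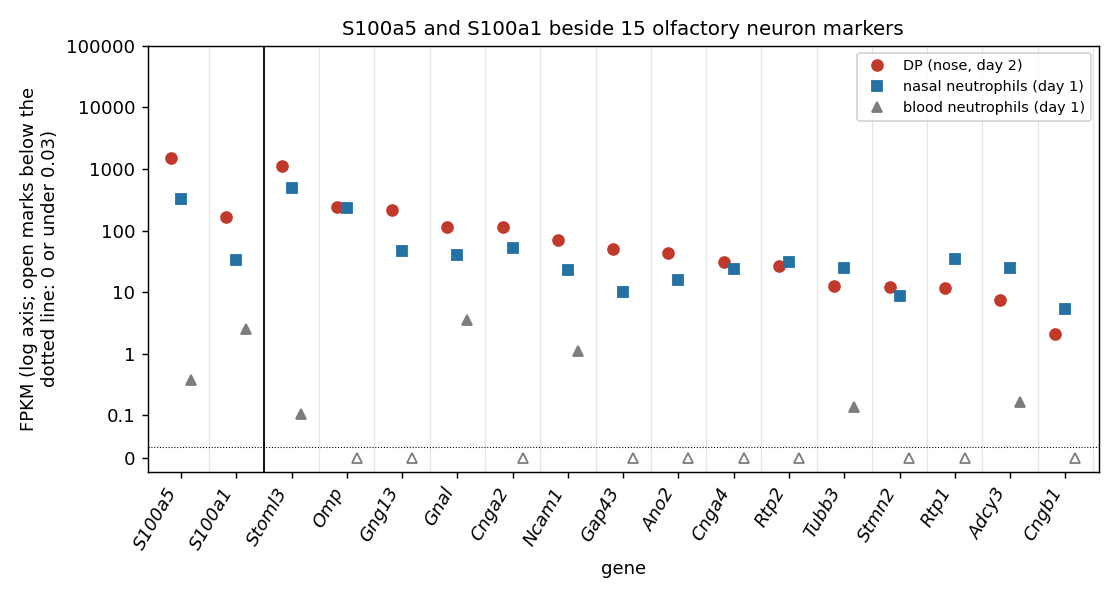
FPKM of S100a5 and S100a1 (left of the black line) and of 15 olfactory neuron markers in each library on a log axis; open marks stand for 0 or under 0.03 FPKM. S100a5 reaches 1517 FPKM in DP, above all 15 markers, and blood neutrophils are lowest for each gene drawn.

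S100a1, S100a13 and S100a16 were the other members with more FPKM in DP than in nasal neutrophils. S100a1 stood at 164.4 FPKM in DP, 33.2 in nasal and 2.48 in blood neutrophils. S100a13, whose product takes part in the release of FGF1 and IL-1 alpha outside the classical secretion route, stood at 128.6, 25.9 and 42.9 FPKM. The 2 genes had almost the same ratio between the nasal libraries, 4.95-fold for S100a1 and 4.96-fold for S100a13, but opposite directions from blood to nose. Nasal neutrophils were 13.4-fold above blood for S100a1, whereas blood was 1.65-fold above nasal neutrophils for S100a13.

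In the RefSeq annotation the models of S100a1 and S100a13 lie on opposite strands and overlap. The windows cut from their promoters share 56 bases of DNA. These bases lie before both listed starts, from which the genes run apart, so they do not show a transcribed overlap. Whether the authors' counting used strand is not given in the sources used here, so reads from an overlap of the models may be uncertain. S100a16, a broadly expressed member, had 14.7 FPKM in DP, 10.3 in nasal neutrophils and a listed 0 in blood. In blood 7 of 14 nasal epithelial and gland markers were at 0 too (Krt5, Epcam, Cyp2g1, Foxj1, Muc5ac, Scgb1a1 and Reg3g). Unlike S100a16, Scgb1a1 was at 0 in the nasal libraries as well, and Muc5ac had only 0.004 FPKM in DP and 0.017 in nasal neutrophils. Between the nasal libraries 7 of the 14 were higher in DP and 6 lower. The median log2 ratio of the 11 that were tested was 0.41, against 0.57 for all genes tested. The part of these epithelial and gland markers in the values of S100a1, S100a13 and S100a16 was not tested.

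The order of levels differed between libraries. In DP it ran S100a8, S100a9, S100a5, S100a11, S100a6, S100a1, S100a13, S100a16, S100a10 and S100a4. In nasal neutrophils S100a11 stood above S100a5, and S100a16 came last. In blood neutrophils S100a9, S100a11 and S100a6 were followed at a distance of 49.8-fold by S100a13, and S100a5 was the lowest above 0. Without replicates the spread behind neighbours in these orders is unknown: S100a13 and S100a10 in nasal neutrophils were a factor of 1.09 apart and S100a1 and S100a4 in blood 1.05.

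RefSeq lists 15 S100a genes on mouse chromosome 3, of which 14 were in the tables and 10 are the members described here. Neighbours on the chromosome could share a pattern or differ. The adjacent S100a8 and S100a9 had nearly the same ratio between the nasal libraries, as had S100a1 and S100a13. S100a4, S100a5 and S100a6 follow each other with no other gene between them, and each was highest in a different library, nasal neutrophils for S100a4, DP for S100a5 and blood for S100a6. S100a11 and S100a10, with 1 other gene between them, differed as well, and blood was highest for the former and lowest for the latter.

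**Figure D3:**
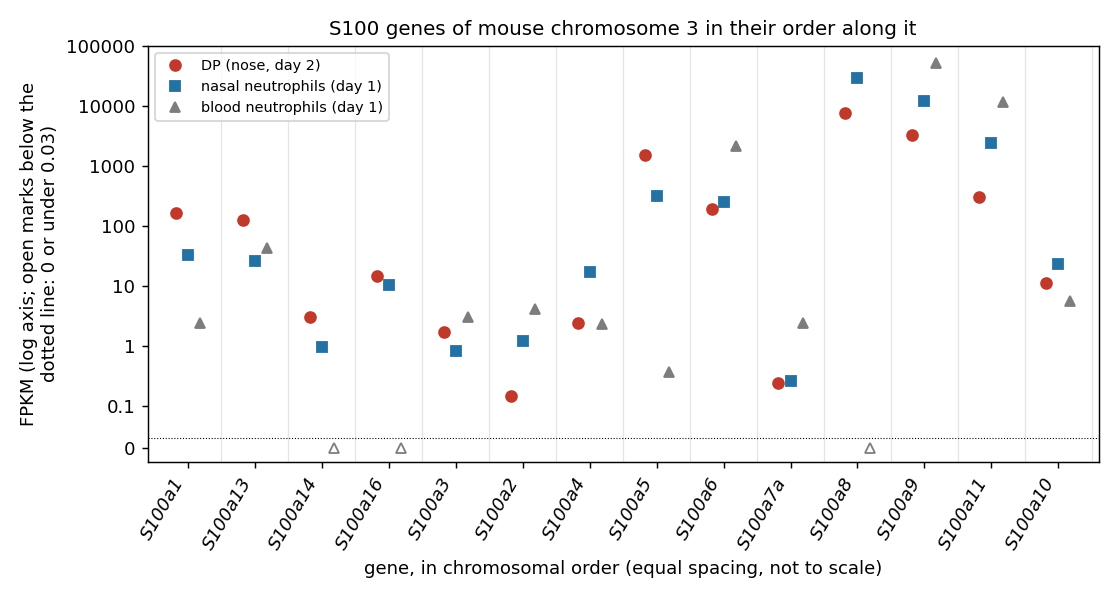
FPKM of the 14 S100a genes of chromosome 3 that are in the tables, in chromosomal order with equal spacing, on a log axis; open marks stand for 0. S100a4, S100a5 and S100a6 are neighbours, with nasal neutrophils, DP and blood neutrophils highest in turn.

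Differences were then compared with those of all genes on the scale of log2(FPKM + 1), which understates the ratio of low genes. The limit was 4-fold, a log2 ratio of 2 in either direction, and genes entered a comparison with a mean of 1 FPKM or more and a value above 0 in both libraries. For DP against nasal neutrophils 3 of 10 members were at least 4-fold higher (S100a1, S100a5 and S100a13), against 7.8% of all 10557 genes tested. Another 2 were at least 4-fold lower (S100a4 and S100a11), against 3.39% of all genes. S100a8 (-1.96) and S100a9 (-1.92) lay just short of that limit. S100a4 (-2.42) missed it with a pseudocount of 5 (-1.59). The median log2 ratio was -0.68 for the members and 0.57 for all genes.

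Which members passed 4-fold depended on how that general shift of 0.57 was treated. With ratios centred on the median of all genes, 0 members were higher and 4 lower, S100a4, S100a8, S100a9 and S100a11, and the higher share of all genes past 4-fold went from 69.7% to 28.1%. Centred log2 ratios were -2.54 for S100a8, -2.50 for S100a9, -3.00 for S100a4 and -3.52 for S100a11. They were 1.70 for S100a1, 1.65 for S100a5 and 1.69 for S100a13, and S100a16 had -0.11 in place of 0.47. S100 transcripts are short, with lengths of 417 to 879 nt, and the 1774 tested genes of that length had a median log2 ratio of 0.91. Among them 15.7% were 4-fold or more higher in DP, and corrected for length no member was 4-fold higher (S100a1 1.36, S100a5 1.30 and S100a13 1.43).

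For nasal against blood neutrophils, which share gate and day, ratios could be formed for 8 of 10 members. At least 4-fold higher in the nose were 3 of 8, S100a1 (log2 ratio 3.30), S100a4 (2.46) and S100a5 (7.89), against 11.1% of all 9811 genes. At least 4-fold lower were 3 of 8, S100a6 (-3.10), S100a9 (-2.09) and S100a11 (-2.29), against 2.79% of all genes. S100a10 (1.90) lay just short of the limit, and with a correction for transcript length it passed (2.12) and S100a9 did not (-1.87). The member median was 0.60 and that of all genes 0.30. The 1659 genes of like length had a median of 0.14, with 11.2% higher and 4.64% lower. With a pseudocount of 5 S100a4 was at 1.61. Centring left both counts at 3 and moved the higher share of all genes past 4-fold from 79.9% to 63.8%.

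For DP against blood neutrophils, in which tissue, gate and day all differ, 2 of 8 members were at least 4-fold higher, S100a1 (5.57) and S100a5 (10.11), against 20.5% of all 9832 genes. At least 4-fold lower in DP were 3 of 8, S100a6 (-3.45), S100a9 (-4.01) and S100a11 (-5.23), against 3.35% of all genes. The member median was 0.46 and that of all genes 0.83. Centred ratios gave the same counts of 2 and 3 members, while S100a4 went from 0.04 to -0.80 and the higher share of all genes past 4-fold from 86.0% to 52.9%. The 1661 genes of like length had a median of 1.02, with 25.8% higher and 3.13% lower. Each pair of comparisons shares a library, so they are not independent of each other.

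**Figure D4:**
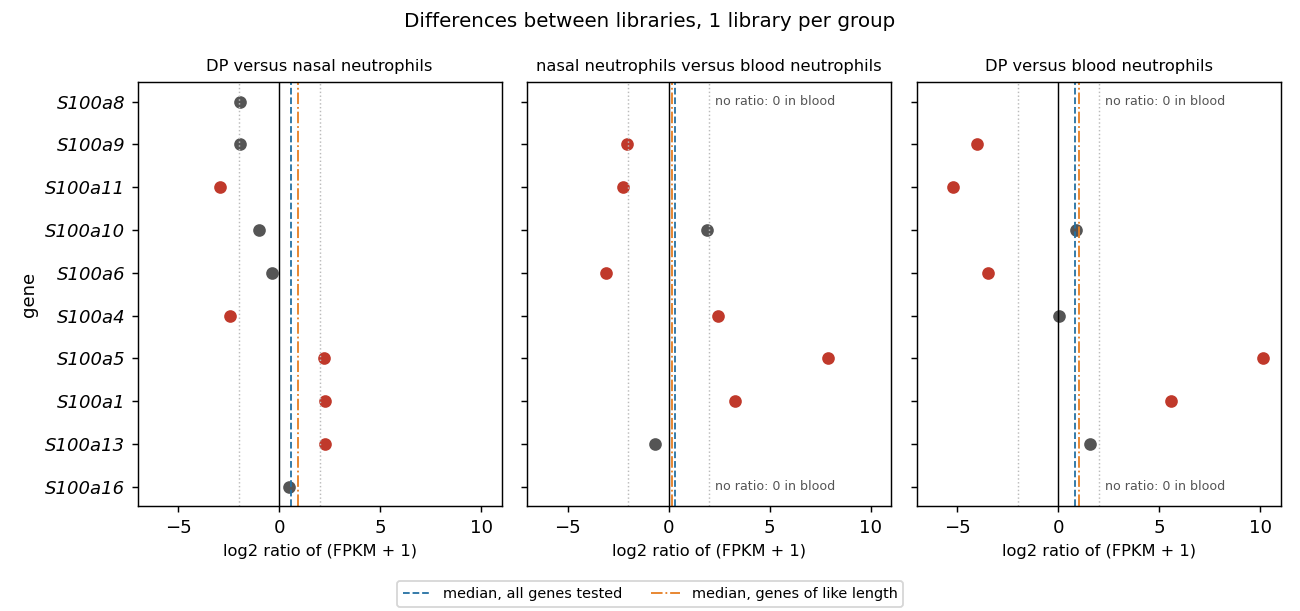
Log2 ratios of (FPKM + 1) for the 10 members in the 3 comparisons; red marks are at 4-fold or more (dotted lines), the dashed line is the median of all genes tested and the dash-dotted line that of genes of 417 to 879 nt. S100a9, S100a11 and S100a6 lie left of 0 in all 3 panels and S100a5 and S100a1 right of it.

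For the gene lists that follow, the medians and shares just given for all genes are the background, and the 4-fold limit is the same. Annexins, the membrane-binding partners of S100A10 and S100A11, were of unlike patterns. Anxa1 stood at 255.7 FPKM in DP, 1086 in nasal and 3700 in blood neutrophils. Anxa2 stood at 447.3, 1011 and 3675 FPKM. Both had the order of S100a11, with blood highest and DP lowest, and not that of S100a10. Anxa11 stood at 17.3, 135.2 and 91.3 FPKM. Of 9 annexins tested for DP against nasal neutrophils, 2 were at least 4-fold lower (Anxa1 and Anxa11) and 0 higher, with a median of -0.08. Of 8 tested for nasal against blood neutrophils, 1 was higher (Anxa4) and 0 lower (median 0.68). For DP against blood 2 of 8 were higher (Anxa4 and Anxa5) and 3 lower (Anxa1, Anxa2 and Anxa11), with a median of 0.67.

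**Figure D5:**
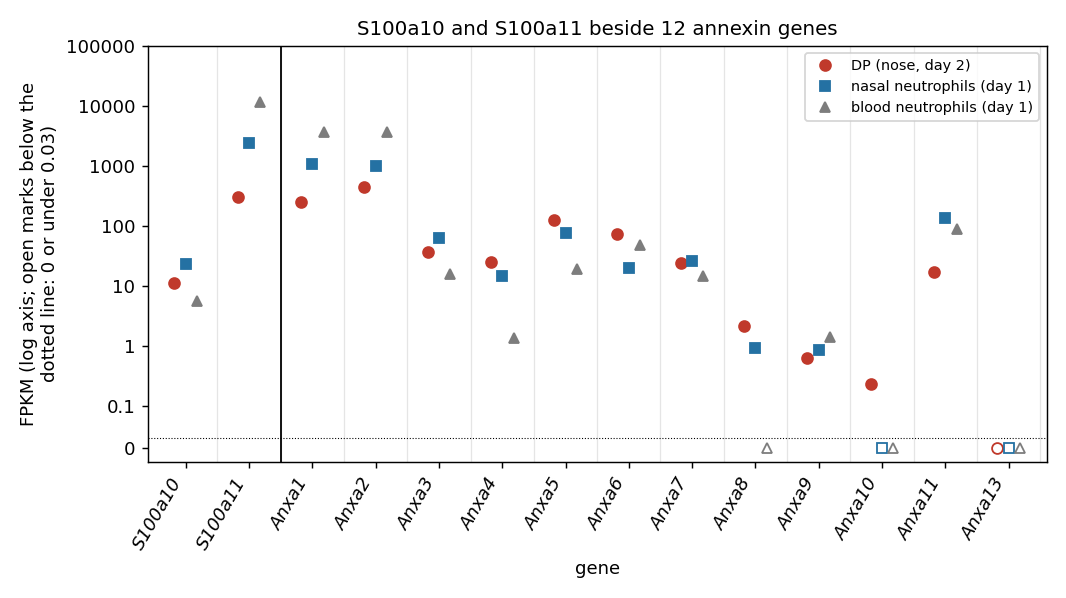
FPKM of S100a10 and S100a11 (left of the black line) and of 12 annexin genes in each library on a log axis; open marks stand for 0. Anxa1 and Anxa2 are highest in blood and lowest in DP, as S100a11 is.

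Genes of the plasminogen system, which p11 serves, were mostly highest in nasal neutrophils (5 of 7), as S100a10 was. So were 10 of 13 macrophage and monocyte markers and 5 of 15 olfactory neuron markers. Plaur, the urokinase receptor, stood at 817.8 FPKM in DP, 1588 in nasal and 226 in blood neutrophils. The plasminogen receptor gene 5033414D02Rik stood at 24, 63.8 and 19.6 FPKM. Eno1, whose product also binds plasminogen at the surface, was more level at 801.7, 730.3 and 1142 FPKM, and Plat, tissue plasminogen activator, stood at 21.9 and 11.5 and was listed at 0 in blood. Against nasal neutrophils 1 of 5 tested genes was at least 4-fold lower in DP (Serpinb2) and 0 higher (median -0.96). From blood to nose 1 of 3 was higher (Plaur) and 0 lower (median 1.66), and between DP and blood 0 of 3 passed 4-fold (median 0.28).

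Receptors and adaptors through which calprotectin signals were tested for 10 of 12 genes. Between DP and nasal neutrophils 0 of 10 passed 4-fold in either direction, with a median of -0.79. Cd14, a co-receptor of Toll-like receptor 4, stood at 4118 FPKM in DP, 12196 in nasal and 204.2 in blood neutrophils, a pattern unlike that of S100a9. Tlr4 itself stood at 11.3, 35.9 and 47.1 FPKM, and its partner Ly96 at 14.9, 36.2 and 84.4, both with blood highest as for S100a9. Bsg, which encodes the S100A9-binding protein basigin, ran the other way at 366.3, 218.6 and 61 FPKM, and the adaptor gene Myd88 was more level at 219.7, 272.7 and 340.6. From blood to nose 2 of 10 were at least 4-fold higher (Cd14 and Cd69) and 0 lower, with a median of 0.77. From blood to DP 4 were higher (Cd14, Bsg, Cd36 and Cd69) and 1 lower (Ly96), with a median of -0.05.

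Of the transcription factors linked to activation of the calprotectin genes, 0 of 7 tested passed 4-fold between DP and nasal neutrophils, with a median of -0.41. Cebpb, a C/EBP factor of inflammation, stood at 156.1 FPKM in DP, 207.7 in nasal and 2.71 in blood neutrophils, lowest where S100a9 was highest. Stat3 stood at 130.8, 133.3 and 90.2 FPKM and Nfe2l2, the antioxidant regulator, at 130.6, 180.4 and 144.3. From blood to nose 2 of 7 were at least 4-fold higher (Cebpb and Klf4) and 0 lower (median 1.03). From blood to DP 2 were higher (Cebpb and Cebpe) and 0 lower (median 0.53).

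NADPH oxidase subunits, the enzyme that makes superoxide and that calprotectin helps to assemble, passed 4-fold for 0 of 6 genes in each of the 3 comparisons, with medians of -0.35, -0.40 and -0.15. Cyba stood at 1577 FPKM in DP, 1192 in nasal and 1909 in blood neutrophils. Ncf4 was within 344.1 to 375 FPKM in the 3 libraries, and Rac2 stood at 417, 523.7 and 1067. The abundant neutrophil cytosol and granule genes behaved otherwise. Of 13 tested, 8 were at least 4-fold lower in DP than in nasal neutrophils and 0 higher, with a median of -2.83. Srgn, serglycin of the granule matrix, stood at 1870 FPKM in DP, 7030 in nasal and 3892 in blood neutrophils. Ifitm2, an interferon-induced membrane protein, stood at 4306, 3471 and 5577 FPKM. From blood to nose 4 of the 13 were higher (Ngp, Ltf, AA467197 and Chi3l3) and 1 lower (Retnlg), with a median of 1.40. From blood to DP 1 was higher (AA467197) and 4 were lower (Lcn2, Lyz2, Retnlg and Mmp8), with a median of -1.07.

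Among binding partners of S100A4, S100A6 and S100A13, Il1a, a cytokine that S100A13 helps to release, stood at 376.9 FPKM in DP, 2575 in nasal and 0.15 in blood neutrophils, whereas S100a13 was lowest in nasal neutrophils. Capzb, an actin-capping subunit, stood at 458, 334.3 and 523.1 FPKM and Sugt1, a co-chaperone, at 50.8, 19.1 and 32.4. Myh9, the myosin heavy chain bound by S100A4, stood at 26.2, 37.7 and 8.50 FPKM, highest in nasal neutrophils as S100a4 was. Of 9 tested, 1 was at least 4-fold lower in DP than in nasal neutrophils (Il1a) and 0 higher (median 0.62). From blood to nose 3 were higher (Myh9, Syt1 and Il1a) and 0 lower (median 0.74), and from blood to DP 2 were higher (Syt1 and Il1a) and 0 lower (median 1.52).

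Genes with levels nearest to those of 3 members were sought by the Euclidean distance in log2(FPKM + 1) over the 3 libraries. Candidates were 5955 genes other than members, with a mean of 5 FPKM or more and a value above 0 in each library. Genes listed at 0 in blood, such as Omp, were thereby left out. With 3 points per gene such nearness is only a description. The nearest to S100a5 was the olfactory neuron marker Stoml3 (distance 0.83), followed by the major urinary protein gene Mup5 (1.09) and the lipocalin gene Lcn13 (1.11). The nearest to S100a6 was Cxcr2 (0.84), the chemokine receptor of neutrophils, at 254.2 FPKM in DP, 350 in nasal and 1444 in blood neutrophils, then Tsc22d3 (0.93) and Slfn1 (1.15). S100a9 had no close neighbour by level, with Gm11428 at 1.99, Tmsb4x at 2.00 and Mir3064 at 2.87. This distance counts level as well as pattern, and S100a9 was the most abundant gene in blood neutrophils.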

How the data were processed

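The authors deposited 1 table per library with 1 value per gene, taken here as FPKM because the submitters' processing notes name Cufflinks 2.1.1 (with TopHat2 2.0.8, Bowtie2 2.1.0 and the mm9 genome). The file headers name no unit, and the sources used here give no program settings. FPKM is no count, so no count model was used. Per the labels' protocols, RNA came from sorted cells in TRIzol LS, and the library kit was one for low input. Groups followed the gate, tissue and day in the labels. With 1 library per group no test was possible.

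Values above 0 and below 1e-06 FPKM (20 to 43 per library) were set to 0. Ratios were taken on log2(FPKM + 1), with a pseudocount of 1. Depth in fragments came from the commonest low FPKM times length among single-transcript genes longer than 1500 nt (50 to 77 genes within 6%). Lengths came from GENCODE M21, of another build, for 98.8% of tested genes. Fragment numbers are upper estimates, since short transcripts have a smaller effective length. Alternatives were other pseudocounts, filters, scalings, a 2-fold threshold and a correction for transcript length in 20 bins. The ratio steps were tested on simulated data (Python 3.11.15).

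The members and the 15 gene lists were chosen with earlier results of these data known. The text names all members, the 3 most abundant genes of each list other than the marker lists, genes at 0 in 1 library and at 10 FPKM or more in both others, and the nearest genes. Other listed genes that passed 4-fold, and Epx, Prg3, Csf3r, Tlr4 and Ly96, were chosen with their values known. So were those markers named beside S100a4, S100a5 and S100a16. Marker lists are given by sums and counts. A listed gene whose symbol was in no table was not analysed here.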

Additional observations from a re-analysis of the deposited data

How the results depend on the processing

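No paired analysis was possible because each group holds 1 library. For DP against nasal neutrophils, where 3 members were higher and 2 lower with a median of -0.68, the counts were 0 higher and 4 lower with ratios centred on the median (member median -1.26), with upper-quartile scaling (median -1.32) and with the correction for transcript length (median -1.60). There 1 member was lower with a pseudocount of 5 and 5 with a 2-fold threshold. With genes listed at 0 kept, 5 members were higher in nasal than in blood neutrophils (median 2.18) and 4 in DP than in blood (median 1.23), since S100a8 and S100a16 then count as higher. The member median for DP against blood, 0.46, was -0.37 when centred, -0.26 with upper-quartile scaling and -0.42 with the length correction. The other 70 counts and medians under these settings stayed within 1.5-fold of the reported ones. Among single members under the alternatives, 217 values either stayed past the limit or stayed short of it within 1.5-fold of the reported ratio. Those that stayed past it could change in size. S100a5 in DP against blood, 10.11, was 8.15 with a pseudocount of 5. A further 15 values stayed short of the limit but moved by more than 1.5-fold. Another 13 fell short of a 4-fold limit they had passed, and 15 newly passed the limit in use (2-fold in 1 of the settings). Of the ratios past 4-fold 0 turned to the other sign. S100a9 missed 4-fold between nasal and blood neutrophils with the length correction (-1.87) and with libraries rescaled to 1000000 (-1.99), and S100a4 missed it in both comparisons with nasal neutrophils with a pseudocount of 5 (-1.59 and 1.61). With libraries rescaled S100a8 reached 4-fold between DP and nasal neutrophils. Depth limits the nasal neutrophil library most.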

Other observations

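The other S100 genes were low in all 3 libraries. The 13 genes of the S100 and fused S100 list that were in the tables summed to 14.3 FPKM in DP, 11.8 in nasal and 13 in blood neutrophils, against 13230, 45158 and 66048 FPKM for the 10 members. S100z had 4.71 FPKM in DP, 4.90 in nasal neutrophils and a listed 0 in blood. S100a3 had 1.72, 0.84 and 3.05 FPKM in that order. S100pbp, which encodes a nuclear protein that binds S100P, stood at 2.12, 2.43 and 2.60 FPKM. Of 5 tested genes 0 passed 4-fold between DP and nasal neutrophils, and of 3 tested 0 did so from blood to nose. From blood to DP 1 of 3 was at least 4-fold lower, S100a2, at 0.15 FPKM in DP and 4.20 in blood, named after its value was seen. S100b, a marker of glia, stood at 1.65, 1.02 and 0.02 FPKM.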
